A study of Mus musculus with 9 samples.

Results

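Livers taken 6 h after an acetaminophen (APAP) overdose were compared with livers of saline-treated mice, gene by gene, in whole-liver RNA. Of the 21870 genes in the deposited expression table, the 11557 that reached 0.5 FPKM in at least 3 of the 9 libraries of the series were compared, using the 3 APAP and the 3 control libraries. FPKM, fragments scaled to transcript length and to the number of mapped fragments, is the level given throughout. All mice were wild-type (WT) C57 BL6 animals, 8 weeks old and about 20 g in weight. The APAP group had received 500 mg/kg APAP by intraperitoneal injection, and the control group is labelled saline. The remaining group had received 300 µg/kg dmPGE2, a stabilised analogue of prostaglandin E2, 1 h before the same APAP dose, and enters here in the estimate of the spread between libraries and in one closing paragraph. The labels leave the name of the control columns undefined, and these columns were assigned to the saline group because the other 6 columns carry the names of the treated groups. The labels do not say that each library came from a separate mouse, so p-values measure the spread between these samples. The 10 hepatocyte markers examined, among them Alb, Apoa1 and Trf, were abundant in all 6 libraries, with a summed level of 39259 to 41966 FPKM in the controls and 46554 to 57161 FPKM after APAP, and none of the 10 passed the test.

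APAP is a common analgesic that hepatocytes clear mainly by conjugation to glucuronate and sulphate. Cytochrome P450 enzymes, which lie mostly in the hepatocytes around the central vein, turn part of a dose into a reactive quinone imine that glutathione captures. After an overdose glutathione runs out, the metabolite binds proteins, many of them mitochondrial, and oxidative stress keeps the kinase JNK active. The centrilobular hepatocytes then die by necrosis, while surviving hepatocytes and other liver cells mount stress, inflammatory and repair programmes.

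The libraries were similar in size. Summed FPKM lay between 371958 and 393938, and 9979 to 10321 genes reached 1 FPKM. The first principal component, with 51.2% of the variance, separated the 3 controls from the 6 treated libraries. Control replicate 3 stood apart from the other controls on the second component (12.6% of the variance), at 32.4 against -15.4 and -16.1. Its lipid metabolism differed most plainly in Cyp4a14, a fatty acid hydroxylase controlled by PPARα, which measured 2248 and 2502 FPKM in control replicates 1 and 2, 10.4 FPKM in control replicate 3, and 2772, 1989 and 2095 FPKM after APAP. The fitted log2 fold change of Cyp4a14 was 2.66 with all controls (limma adjusted p = 0.312) and fell to 0.00 without control replicate 3. The whole comparison was therefore repeated without that library, and also without each of the other 5.

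APAP changed a large part of the measured transcriptome. After rescaling of the libraries, 2393 of the 11557 genes (20.7%) passed limma at an adjusted p of 0.05, 1307 higher (11.3%) and 1086 lower (9.4%) in the APAP livers. The large changes were mostly rises. Among called genes, 501 rose and 187 fell at least 2-fold, 176 rose and 17 fell at least 4-fold, and 55 rose but 1 fell at least 10-fold, while 868 of the called genes moved by less than 1.5-fold. The control and APAP values did not overlap for 4486 of the 11557 genes (38.8%) and for 2377 of the 2393 called. The balance of directions depended on rescaling, which shifted log2 differences by about 0.12, and by less for genes of low level. On the FPKM as deposited, 974 genes were called higher and 2107 lower. A rise of a gene in bulk RNA, and likewise a fall, cannot be divided here into a change in the number of cells of a type and a change in RNA per cell.

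Most of the large changes held without control replicate 3. Refitting without it called 2360 genes (20.4%), 1190 higher (10.3%) and 1170 lower (10.1%). Of the original calls 1012 of 1307 rises and 892 of 1086 falls were kept, and 175 of the 176 rises and 16 of the 17 falls of at least 4-fold. The refit also called 178 genes higher and 278 lower that the full comparison did not. In all of the 6 fits that each leave out a control or APAP library, 735 rises (6.36% of the genes tested) and 509 falls (4.4%) stayed called, and genes of these 2 sets are described below unless another status is given.

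**Figure D1:**
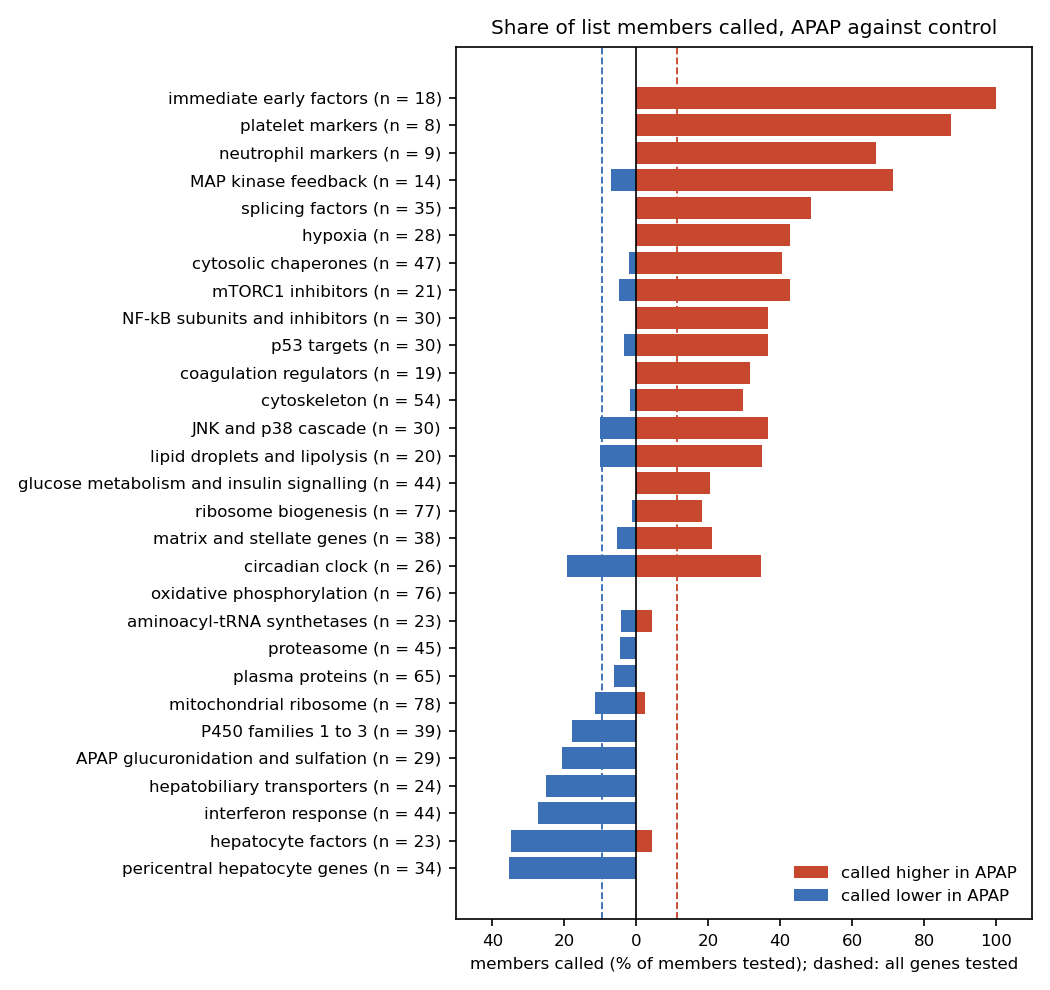
Share of the tested members of 29 gene lists that limma called higher (red, to the right) or lower (blue, to the left) in APAP against control livers, in percent of the members tested, with the number tested in parentheses. Dashed lines mark the shares over all 11557 genes, 11.3% higher and 9.4% lower; all 18 tested immediate early factors rose, 4 of which were tested only because treated libraries passed the filter, and no oxidative phosphorylation gene was called in either direction.

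By level rather than by ratio, Mt2 rose most, followed by Igfbp1, Apoa4 and Mt1. Mt2 and Mt1 are metallothioneins, small cysteine-rich proteins that bind zinc and copper. Mt2 measured 53.8, 29.7 and 1.82 FPKM in the controls and 1321, 983 and 1140 FPKM after APAP, an 85.1-fold rise (adjusted p = 0.00301). Mt1 went from 67.5, 26.9 and 5.48 FPKM to 665, 542 and 546 FPKM, a 29.2-fold rise (adjusted p = 0.00238). Every APAP library lay far above every control for both, but the size of the ratio followed the control used: control replicate 3 was the lowest for both, and without it the log2 fold change was 4.90 in place of 6.41 for Mt2 and 3.83 in place of 4.87 for Mt1, whereas without control replicate 1, the highest, it was 7.37 and 5.70. Of the 22 tested genes for metallothioneins and zinc transporters, 4 rose (18.2%) and 1 fell (4.5%), beside backgrounds of 11.3% higher and 9.4% lower. The list's median log2 fold change was -0.04, against -0.02 over all genes tested. The zinc exporter gene Slc30a1 measured 16.9 ± 1.09 FPKM in the controls and 16.97 ± 1.30 FPKM after APAP (SD, n = 3 each) and was not called.

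Other transcripts with large gains in level were Igfbp1, which encodes a secreted binder of insulin-like growth factors, Apoa4, an apolipoprotein of triglyceride-rich particles, and Slc25a47, a mitochondrial carrier made mainly in liver. Igfbp1 rose from 45.6, 66.6 and 22.2 FPKM to 840, 698 and 892 FPKM, 21.5-fold (adjusted p = 0.000154). Slc25a47 rose from 295, 294 and 244 FPKM to 831, 819 and 681 FPKM, 3.05-fold (adjusted p = 0.000266). Apoa4 rose from 144, 180 and 35.7 FPKM to 1240, 604 and 723 FPKM, and its log2 fold change of 3.19 became 2.41 without control replicate 3. The groups did not overlap for any of these genes. Also among the 15 largest gains were Sqstm1, the autophagy receptor p62 that also frees NRF2 from its inhibitor (113 to 174 FPKM in the controls against 343 to 437 FPKM), Agt, the angiotensin precursor (190 to 269 against 431 to 460 FPKM), Fth1, the ferritin heavy chain (387 to 427 against 563 to 676 FPKM), and H3f3b, a replication-independent histone H3 gene (32.6 to 40.4 against 176 to 255 FPKM).

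Clec2d, a C-type lectin-like receptor, fell from 160, 140 and 122 FPKM to 32.6, 37.3 and 30.8 FPKM, with a fold of 0.26 (adjusted p = 6.53e-05). Nat8f2, an N-acetyltransferase family member, fell from 338, 350 and 320 to 163, 137 and 169 FPKM. Alas1, the rate-limiting enzyme of hepatic haem synthesis, fell from 191, 220 and 149 to 91.6, 91.9 and 70.0 FPKM, and Hal, which starts histidine breakdown, from 98.8, 104 and 68.2 to 27.7, 47.3 and 28.1 FPKM. For each of these the lowest control exceeded the highest APAP library. Akr1c6, a hydroxysteroid dehydrogenase, fell from 374, 385 and 759 to 153, 210 and 154 FPKM, control replicate 3 being the highest of all. Rnase4 (200 to 324 FPKM against 108 to 131 FPKM) and Aldh8a1, an enzyme of tryptophan breakdown (105 to 118 against 53.7 to 69.7 FPKM), were also lower in every APAP library than in any control. Part of the Rnase4 transcript lies in the overlapping gene Ang, so its level is uncertain.

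**Figure D2:**
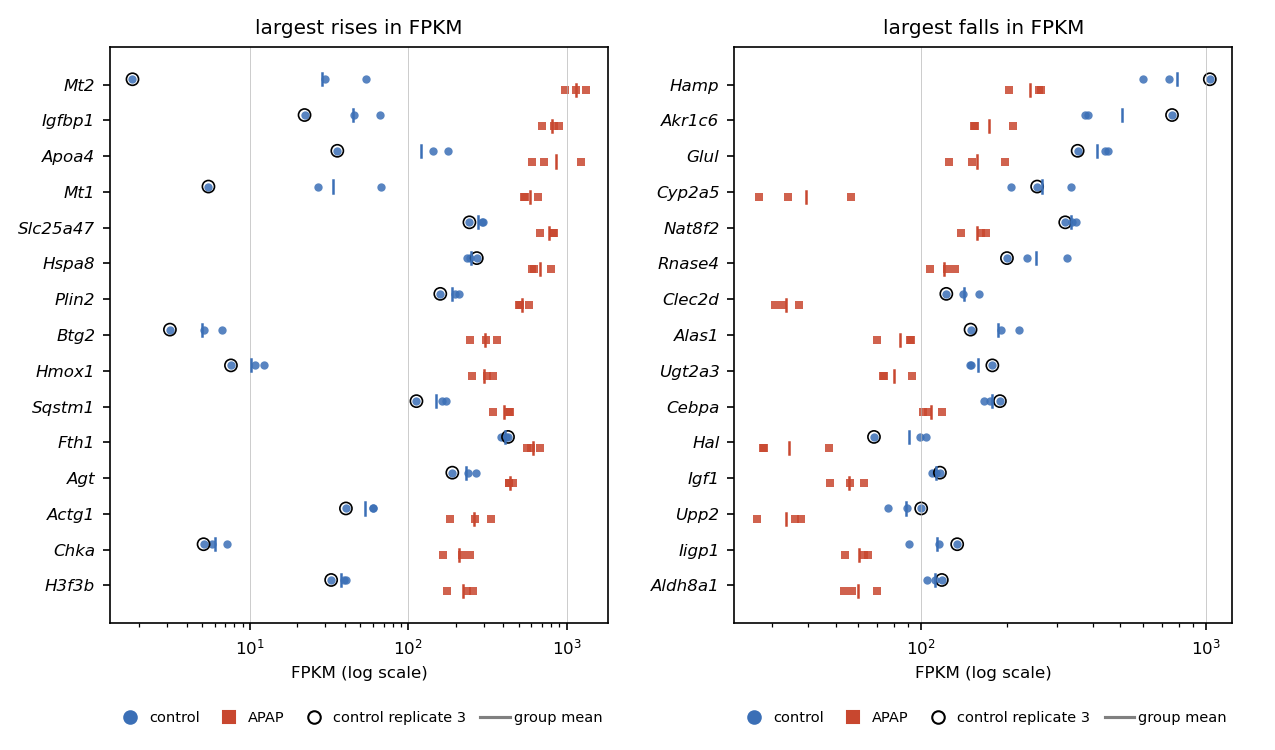
FPKM (log scale) in each control (circles) and APAP library (squares) for the 15 genes with the largest rise and the 15 with the largest fall in rescaled FPKM among genes called in every leave-one-library-out fit; vertical ticks mark group means and black rings control replicate 3. No gene shown has overlapping groups; Mt2 goes from 1.82 to 53.8 FPKM in the controls to 983 to 1321 FPKM after APAP.

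Regulatory sequence is shown for both metallothioneins, which are among the 4 genes with the largest gain in level and whose promoters carry metal response elements bound by the zinc sensor MTF1. The 250 bases before the RefSeq start are given 5′ to 3′ on the gene's strand (RefSeq, build GRCm38.p6), with each match to TGCACNC, one form of the metal response core, on either strand, in capitals. Other forms of the core were not searched for and are not marked. Mt2 lies at chr8:94172368-94172617 on the plus strand and holds 2 matches, and Mt1 at chr8:94178839-94179088 on the plus strand holds 1.
Mt2: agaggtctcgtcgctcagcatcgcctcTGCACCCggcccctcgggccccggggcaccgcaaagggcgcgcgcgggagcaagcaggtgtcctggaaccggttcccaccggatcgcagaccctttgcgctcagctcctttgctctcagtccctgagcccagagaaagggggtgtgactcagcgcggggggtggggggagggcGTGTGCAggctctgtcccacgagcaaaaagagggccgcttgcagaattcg
Mt1: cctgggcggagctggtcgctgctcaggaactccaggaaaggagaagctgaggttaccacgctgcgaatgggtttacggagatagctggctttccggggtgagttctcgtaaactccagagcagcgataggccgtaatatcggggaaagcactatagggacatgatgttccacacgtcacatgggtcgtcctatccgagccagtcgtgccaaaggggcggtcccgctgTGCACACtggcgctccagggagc
The same form of the core was found in 12.7% of the 300-base RefSeq promoter windows of the 9128 tested genes that have one, so a match describes the sequence and does not mark a site in use.

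Cytosolic chaperones, which hold and refold damaged proteins, were often called higher. Of 47 tested members 19 were called higher and 1 lower, with 27 not called and a background of 11.3% higher, 17 and 1 of them also without control replicate 3, and the list's median log2 fold change was 0.26 against -0.02 over all genes tested. The stress-inducible Hspa1b, the classic heat-shock protein HSP70, measured 1.42, 1.61 and 3.86 FPKM in the controls and 15.8, 10.6 and 18.5 FPKM after APAP, 7.32-fold higher (adjusted p = 0.000594). It is nearly identical to its neighbour Hspa1a, which rose 7.13-fold, so reads may be split between them. The HSP40 co-chaperone Dnajb1 rose from 5.16, 4.97 and 6.29 FPKM to 39.7, 15.7 and 29.7 FPKM, and the inducible HSP90 gene Hsp90aa1 from 30.5, 26.3 and 23.0 FPKM to 125, 58.3 and 76.2 FPKM. APAP replicate 2 was the lowest treated library for both, yet above all controls. The small heat-shock protein gene Hspb1 rose 3.19-fold (adjusted p = 0.00312). Bag4, a co-chaperone of HSP70, was the member that fell, to a fold of 0.61. Cct5, a subunit of the constitutive folding chamber TRiC, measured 48.3 ± 1.60 FPKM in the controls and 49.2 ± 1.80 FPKM after APAP (SD, n = 3 each) and was not called.

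Heat-shock genes are driven by HSF1, which binds inverted GAA repeats. The core GAANNTTC, which reads the same on both strands, occurred in 11 of the 38 chaperone promoter windows and in 5.75% of the 9128 windows of tested genes. The 250 bases before the start of Hspa1b (chr17:34959239-34959488, minus strand) and Hspb1 (chr5:135887669-135887918, plus strand) are shown in the same way, with matches to this core in capitals.
Hspa1b: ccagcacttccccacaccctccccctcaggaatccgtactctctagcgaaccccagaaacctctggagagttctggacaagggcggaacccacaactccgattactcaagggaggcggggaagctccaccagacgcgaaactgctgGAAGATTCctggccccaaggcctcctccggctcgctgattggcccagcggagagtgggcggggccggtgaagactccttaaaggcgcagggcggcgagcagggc
Hspb1: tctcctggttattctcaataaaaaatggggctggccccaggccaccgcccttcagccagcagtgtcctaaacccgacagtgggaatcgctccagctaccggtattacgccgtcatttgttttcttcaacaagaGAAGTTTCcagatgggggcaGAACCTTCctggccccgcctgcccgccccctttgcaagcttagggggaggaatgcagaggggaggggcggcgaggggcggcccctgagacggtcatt
Hspa1b holds 1 match and Hspb1 holds 2, while the window of Dnajb1 holds none.

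Other protein quality systems are given beside backgrounds of 11.3% higher and 9.4% lower. Of 45 proteasome subunit genes 0 rose and 2 fell, the falls becoming 6 without control replicate 3 and 0 without control replicate 1, control replicate 2 or APAP replicate 3. Of 41 autophagy genes 3 rose and 6 fell, the falls becoming 1 without control replicate 1 or APAP replicate 3, 2 without APAP replicate 1 and 3 without control replicate 2. Of 34 endoplasmic reticulum chaperone and degradation genes 3 rose and 1 fell, and without control replicate 2 these counts were 1 and 3. Among 41 genes for mitochondrial chaperones, proteases, import and dynamics, Clpx stood out. It encodes the unfoldase of the matrix protease ClpXP, and it rose from 33.1, 30.6 and 31.0 FPKM to 78.9, 112 and 75.4 FPKM, 3.01-fold (adjusted p = 0.00037). Hspd1, the matrix chaperonin, measured 133 ± 2.82 and 129 ± 19.0 FPKM in controls and APAP livers (SD, n = 3 each) and was not called. Mfn2, a mitochondrial fusion protein, fell to a fold of 0.75. None of the 76 oxidative phosphorylation genes was called by limma (4 had an unadjusted p under 0.05), with a median log2 fold change of 0.00, although 6 were called lower on the FPKM as deposited.

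Feedback brakes on MAP kinases rose beside the first wave of transcription factors. All 18 tested immediate early factors rose, and of 14 tested MAP kinase feedback genes 10 rose and 1 fell, but 4 of the former and 1 of the latter passed the filter on low values only through treated libraries, where they are high. Over all genes tested 11.3% were called higher and 9.4% lower, and 182 entered in that way, of which 127 were called higher. Dusp8, a phosphatase that acts on JNK and p38, measured 0.348, 0.248 and 0.298 FPKM in the controls and 8.27, 6.78 and 7.39 FPKM after APAP, a 20.4-fold rise with little spread (SE 0.122 on the log2 scale, adjusted p = 2.42e-07). Dusp8 was under 0.5 FPKM in all controls and is the feedback gene that passed the filter only through treated libraries. Dusp5, a nuclear phosphatase of ERK, rose from 0.479, 0.231 and 0.55 FPKM to 19.6, 11.9 and 27.0 FPKM, and Dusp4 and Dusp6 rose 7.29-fold and 6.54-fold. The exception was Dusp7, which fell from 1.89, 1.67 and 1.68 to 0.712, 0.959 and 0.776 FPKM. Upstream in the JNK and p38 cascade, 11 of 30 genes rose and 3 fell, but the falls became 0 without APAP replicate 1 and 1 without APAP replicate 3. Gadd45a, a stress sensor that binds MAP kinase kinase kinases, went from 1.00, 0.966 and 2.67 FPKM to 34.5, 31.2 and 33.4 FPKM, and Gadd45b rose 9.12-fold. Map3k6 rose 6.34-fold, Map3k5, which encodes the redox-sensitive kinase ASK1, 1.93-fold, and Mapkapk2, a kinase downstream of p38, 2.26-fold. No control library reached the lowest APAP library in any of these rises. The p38α gene Mapk14 and the JNK2 gene Mapk9 were not called.

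Further transcription factors rose behind the immediate early genes, beside backgrounds of 11.3% higher and 9.4% lower. Of 13 tested KLF factors 5 rose, Klf4 from 0.593, 0.631 and 0.554 FPKM to 4.55, 4.23 and 4.004 FPKM and Klf3 2.34-fold, whereas Klf9 measured 57.4 ± 8.39 FPKM in the controls and 66.8 ± 5.39 FPKM after APAP (SD, n = 3 each) and was not called. Maff, counted among the immediate early factors, rose 14.05-fold. Among other bZIP factors 8 of 29 rose and 3 fell, 1 without control replicate 2 or APAP replicate 3. Mafk, like Maff a small partner of NRF2 at antioxidant response elements, rose 4.84-fold. Cebpb, a driver of acute-phase and regenerative genes, rose from 104, 130 and 70.9 FPKM to 290, 259 and 281 FPKM, while its relative Cebpa, which maintains the differentiated hepatocyte, fell from 174, 166 and 189 FPKM to 105, 101 and 118 FPKM. The pair moved apart in every library.

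Genes for mRNA decay and splicing were called higher more than lower, beside backgrounds of 11.3% higher and 9.4% lower. Of 35 tested mRNA decay genes 9 rose (5 without APAP replicate 3) and 1 fell. Zfp36, which destabilises AU-rich cytokine mRNAs, measured 9.15, 14.6 and 15.5 FPKM in the controls and 100, 90.5 and 96.5 FPKM after APAP (8.11-fold, adjusted p = 0.000101), and Btg1, an adaptor of the CCR4-NOT deadenylase, rose 4.08-fold. Of 35 tested splicing factors 17 were called higher and none lower, 14 of them also without control replicate 3, with a median log2 fold change of 0.42. These rises were moderate: Tra2b rose 3.08-fold, the splicing kinases Clk4 and Clk1 2.29-fold and 2.09-fold, Rbm39 2.05-fold and Sfpq 1.96-fold. Ribosome biogenesis genes followed more weakly, with 14 of 77 higher and 1 lower, among them Taf1d, a subunit of the RNA polymerase I factor SL1 (2.49-fold), and Npm1, nucleophosmin (1.42-fold). Without control replicate 2 the rises numbered 10 splicing factors and 5 ribosome biogenesis genes, and without APAP replicate 3 the latter numbered 8.

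Amino acid and translation control genes changed in both directions. Psat1, which makes serine, rose from 0.493, 0.277 and 0.473 FPKM to 4.55, 6.22 and 3.92 FPKM, 10.5-fold (adjusted p = 7.7e-05). Mthfd2, an enzyme of mitochondrial one-carbon metabolism, rose 5.04-fold, whereas Shmt1, the cytosolic serine hydroxymethyltransferase that is far more abundant in liver, fell from 40.6, 54.0 and 51.3 to 27.4, 26.5 and 29.6 FPKM. Of 26 tested amino acid transporters 5 rose and 5 fell, against backgrounds of 11.3% and 9.4%, and the falls became 3 without control replicate 1 or 2 and 2 without APAP replicate 1 or 3. Slc7a1, the cationic amino acid carrier, rose from 0.258, 0.254 and 0.295 FPKM to 2.47, 2.08 and 2.02 FPKM, and the glutamine carrier Slc38a2 rose 2.17-fold. Psat1 and Slc7a1 were under 0.5 FPKM in all controls and passed the filter only through treated libraries. Slc6a6, which imports taurine, fell from 31.5, 32.0 and 32.7 FPKM to 10.1, 12.3 and 14.1 FPKM (fold 0.412, adjusted p = 0.000394), the groups being far apart. Of 21 genes listed for mTORC1 and translation control, not all of which restrain either, 9 rose and 1 fell. The rises included Chac1, a glutathione-degrading target of ATF4 (5.90-fold), Ppp1r15a, the GADD34 phosphatase subunit (5.16-fold), and Trib1 (4.26-fold). By contrast 1 of 23 aminoacyl-tRNA synthetase genes rose and 1 fell.

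Cell death regulators and p53 targets are given beside backgrounds of 11.3% higher and 9.4% lower. The falls among death receptor and caspase genes (11.1%) were near the background. Tnfrsf12a, the receptor Fn14 of the cytokine TWEAK, was the most changed of 27 death receptor and caspase genes (6 higher and 3 lower, the latter 1 without control replicate 2 or APAP replicate 1), from 4.45, 4.09 and 2.63 FPKM to 35.4, 22.1 and 37.3 FPKM (8.98-fold, adjusted p = 0.000168). Fadd, the adaptor that links death receptors to caspase 8, fell to a fold of 0.589. In the BCL2 family 4 of 18 rose (2 without APAP replicate 1) and 3 fell: the anti-apoptotic Bcl2l1 and Mcl1 rose 2.22-fold and 1.72-fold, and the pro-apoptotic Bmf fell to a fold of 0.486, while Bax was not called. Of 30 p53 targets 11 rose and 1 fell. Plk3, a stress-activated kinase, rose from 14.1, 22.9 and 7.03 FPKM to 174, 121 and 151 FPKM, and Trp53inp1 rose 6.82-fold. Ccng1, also a direct p53 target, was the member that fell, from 9.59 ± 0.292 to 6.17 ± 0.624 FPKM (SD, n = 3 each).

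**Figure D3:**
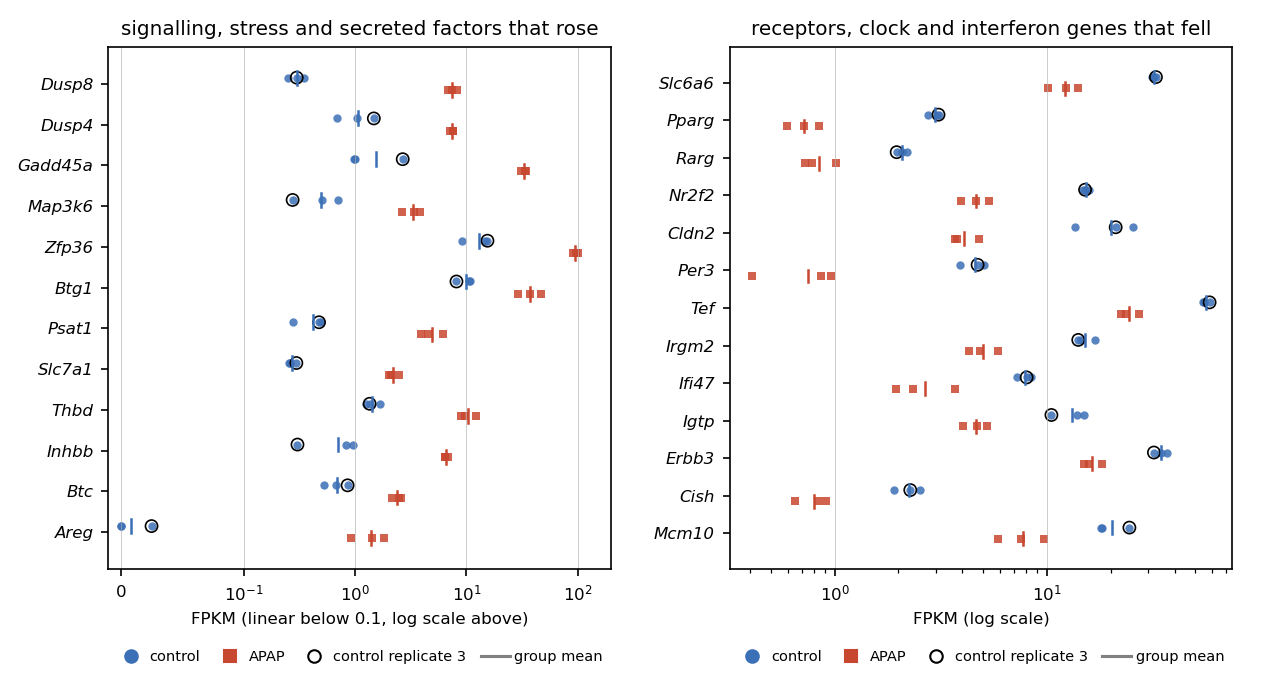
FPKM in each control (circles) and APAP library (squares) for 12 genes that rose (left; axis linear below 0.1 FPKM and logarithmic above) and 13 that fell (right; log scale); ticks mark group means and black rings control replicate 3. The groups are separate for every gene shown. Control replicate 3 does not always lie close to the other controls: it is well above them for Gadd45a and well below them for Inhbb.

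Antioxidant and glutathione genes moved in both directions, beside backgrounds of 11.3% higher and 9.4% lower, and no glucuronidation or sulfation gene rose. The median log2 fold change was -0.08 for redox enzymes and -0.20 for glutathione genes, against -0.02 over all genes tested. Of 40 redox enzymes 8 were called higher and 3 lower (6 and 0 kept without control replicate 3, 5 higher without APAP replicate 2, lower 1 without control replicate 2 and 0 without APAP replicate 1, and 6 and 11 called without rescaling), for example Osgin1, an oxidative stress-induced growth inhibitor (3.69-fold), and the thioredoxin reductase Txnrd1 (1.71-fold). Of 32 glutathione synthesis and transfer genes 4 rose (12.5%, near the background) and 5 fell (15.6%). The falls became 1 without control replicate 2, 2 without control replicate 3 and 0 without APAP replicate 1 or 3. Gm3776 and Gsta1, closely related alpha-class glutathione S-transferase genes whose reads may be shared, rose from very low levels. Gm3776 was listed at 0 in all 3 controls and at 8.56, 6.29 and 8.34 FPKM after APAP, so it passed the filter only through treated libraries. Gsta1 measured 0.0497, 0.216 and 1.33 FPKM against 13.03, 9.34 and 12.7 FPKM, and its log2 fold change of 4.94 became 5.78 without control replicate 3 and 4.24 without control replicate 1. Of 29 glucuronidation and sulfation genes 0 rose and 6 fell, among them Ugt2b35, from 68.3, 80.9 and 105 to 33.7, 41.4 and 32.1 FPKM, and Ugt2a3, from 149, 149 and 178 to 73.4, 92.4 and 73.8 FPKM. Of 39 P450 genes of families 1 to 3, 0 rose and 7 fell, with 13 lower without rescaling and 4 without control replicate 1, APAP replicate 1 or APAP replicate 3. Cyp2a22 fell from 10.7, 17.8 and 11.2 to 2.15, 3.71 and 2.16 FPKM, and, as it resembles Cyp2a5 closely, the assignment of reads between them is uncertain. Cyp3a11, the most abundant P450 of its subfamily here, measured 1582, 1568 and 1427 FPKM in the controls against 646, 1346 and 753 FPKM after APAP, and did not pass the test (adjusted p = 0.101), with APAP replicate 2 the treated library nearest the controls. It passed without that library (adjusted p = 0.00678) and on the FPKM as deposited (adjusted p = 0.0448). Of 24 hepatobiliary transporters 0 rose and 6 fell, including both subunits of the sterol exporter, Abcg5 (fold 0.562) and Abcg8 (fold 0.583).

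Several transcription factors that maintain hepatocytes were lower. Of 23 tested hepatocyte factors 1 rose and 8 fell, all 9 also without control replicate 3, against backgrounds of 11.3% and 9.4%. Nr2f2, the orphan receptor COUP-TFII, fell from 14.8, 15.8 and 15.1 FPKM to 3.96, 5.35 and 4.64 FPKM (fold 0.334, adjusted p = 0.000316). Prox1 and Foxa2 fell to folds of 0.635 and 0.626, whereas Hnf4a measured 266, 212 and 192 FPKM against 177, 218 and 207 FPKM and overlapped between the groups. Among 35 nuclear receptors 3 rose and 7 fell, of which 1 and 7 were kept without control replicate 3, and no rise without control replicate 1, APAP replicate 1 or APAP replicate 3. Pparg fell from 2.76, 3.05 and 3.09 to 0.716, 0.847 and 0.595 FPKM, Rarg from 2.08, 2.18 and 1.96 to 0.779, 0.727 and 1.02 FPKM, and Esr1 and Rxra to folds of 0.525 and 0.69. Ppara was not called. Pericentral hepatocyte genes, which mark the zone that APAP injures, numbered 12 lower and 0 higher of 34 (10 kept without control replicate 3, and 6 without control replicate 2, 5 without APAP replicate 1 and 6 without APAP replicate 3), and periportal genes 2 higher and 2 lower of 29. Cldn2, a tight-junction protein, fell from 13.6, 25.5 and 21.1 to 4.79, 3.76 and 3.68 FPKM.

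Several genes for storing lipid and making phospholipid rose, beside backgrounds of 11.3% higher and 9.4% lower. Of 20 lipid droplet and lipolysis genes 7 rose and 2 fell, 1 without control replicate 1, control replicate 2, APAP replicate 1 or APAP replicate 3. Cidec, which fuses droplets into larger ones, measured 3.46, 3.83 and 0.5852 FPKM in the controls and 105, 71.2 and 62.6 FPKM after APAP, 39.6-fold higher (adjusted p = 0.000594), and the log2 fold change of 5.31 became 4.44 without control replicate 3. Plin5, which ties droplets to mitochondria, rose 3.70-fold, and Fitm1, which helps droplets to form, fell to a fold of 0.386. In phospholipid synthesis, where 6 of 24 genes rose (3 without APAP replicate 1), Chka, choline kinase alpha, changed far more than the other genes. It rose from 7.13, 5.81 and 5.10 FPKM to 246, 166 and 220 FPKM, 37.3-fold (SE 0.322 on the log2 scale, adjusted p = 3.61e-05), and the later enzymes of that route, such as Chpt1, were not called. Gpat3, which acylates glycerol phosphate, rose 5.12-fold, and its log2 fold change of 2.35 became 1.65 without control replicate 3. Angptl4, a secreted inhibitor of lipoprotein lipase, rose 2.68-fold, and Insig2, a brake on sterol synthesis, 2.76-fold. Of 32 cholesterol genes 1 rose and 7 fell, but the falls became 1 without control replicate 2, APAP replicate 1 or APAP replicate 3, 2 without APAP replicate 2, 4 without control replicate 3 and 13 without control replicate 1, and of 41 fatty acid oxidation and ketogenesis genes 4 rose.

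Other metabolic groups are given beside backgrounds of 11.3% higher and 9.4% lower. Of 49 urea cycle and amino acid breakdown genes 2 rose and 2 fell, and neither rise was kept without control replicate 3. Of 15 tested polyamine genes 2 rose (13.3%), 1 fell (6.7%) and 12 were not called, shares close to those backgrounds. Sat1, which acetylates spermidine and spermine, went from 18.8, 14.2 and 15.05 FPKM to 47.8, 48.4 and 54.4 FPKM. Smox, spermine oxidase, rose 4.79-fold, and Srm, spermidine synthase, fell to a fold of 0.667, while Odc1, the first enzyme, overlapped between the groups. Of 41 haem and iron genes 6 rose and 9 fell. Id3, a target of BMP signalling, rose from 15.02, 14.2 and 13.5 to 55.3, 45.7 and 46.5 FPKM, and Ireb2, the iron regulatory protein IRP2, fell to a fold of 0.623. Among 44 glucose and insulin signalling genes 9 rose and 0 fell, including the transcription factor Foxo3 (1.82-fold), and the gluconeogenic Pck1 was not called. None of 65 plasma protein genes rose and 4 fell (2 without APAP replicate 1 or 3), among them Serpina6, corticosteroid-binding globulin, which went from 27.9, 36.5 and 88.1 to 15.2, 14.7 and 13.9 FPKM.

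Clock and growth hormone genes changed in both directions, beside backgrounds of 11.3% higher and 9.4% lower. Of 26 circadian clock genes 9 rose and 5 fell. Arntl, which encodes the activator BMAL1, rose from 1.48, 2.19 and 0.441 FPKM to 5.90, 8.38 and 7.56 FPKM, and its log2 fold change of 2.66 became 2.01 without control replicate 3. Nfil3, a repressor of clock output genes, rose 4.84-fold. Per3 fell from 3.89, 5.08 and 4.72 to 0.865, 0.41 and 0.965 FPKM, and Tef, an activator of clock output genes, from 55.0, 54.7 and 58.5 to 23.6, 22.4 and 27.2 FPKM. The labels give the time after APAP but no hour of the day, so a shift in time of collection and an effect of APAP cannot be told apart for these genes. Of 18 growth hormone and IGF genes 6 rose, Igfbp1 among them, and 3 fell, and the rises became 2 without control replicate 2 and 3 without APAP replicate 3. Downstream of growth hormone, Igf1 fell from 113, 109 and 116 to 62.7, 47.8 and 56.1 FPKM and Cish, a feedback inhibitor induced through STAT5, from 2.52, 1.91 and 2.27 to 0.907, 0.833 and 0.652 FPKM. The receptor gene Ghr did not pass limma (adjusted p = 0.0855) except without control replicate 2 (adjusted p = 0.0495) or rescaling (adjusted p = 0.0429).

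Secreted signals for growth and repair rose from low levels. Of 41 tested hepatokine and growth factor genes 11 rose and 5 fell (3 without control replicate 2), beside backgrounds of 11.3% and 9.4%. Of the 41, 2 passed the filter on low values only through treated libraries, Areg among them. Inhbb, the beta B subunit of activin, measured 0.955, 0.822 and 0.302 FPKM in the controls and 6.89, 6.40 and 6.48 FPKM after APAP (adjusted p = 0.00037). EGF receptor ligands rose together: Areg was at 0, 0 and 0.0251 FPKM in the controls and at 1.40, 0.919 and 1.81 FPKM after APAP, Btc went from 0.529, 0.676 and 0.854 to 2.16, 2.46 and 2.58 FPKM, and Hbegf rose 6.84-fold. Among the receptors Erbb3 fell from 36.7, 34.6 and 32.0 to 15.8, 18.2 and 14.9 FPKM, and Egfr, at 86.9, 67.4 and 210 FPKM in the controls and 55.0, 50.1 and 56.7 FPKM after APAP, was not called by limma (adjusted p = 0.0897) except without control replicate 2 (adjusted p = 0.0288). Epha2, an ephrin receptor, rose from 6.74, 7.40 and 8.51 to 33.9, 31.9 and 39.1 FPKM.

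Regulators of clotting and fibrinolysis rose while the plasma factors did not. Of 19 tested regulators 6 rose and 0 fell, beside backgrounds of 11.3% higher and 9.4% lower. All 6 stayed called in every fit that left out a library. Of the 19, 2 passed the filter on low values only through treated libraries, where they are high. Thbs1, thrombospondin 1, rose 11.8-fold, with APAP values of 6.39, 2.90 and 8.92 FPKM. Thbd, thrombomodulin, rose from 1.68, 1.26 and 1.35 to 12.3, 8.94 and 9.80 FPKM (adjusted p = 9.26e-06), and Plaur, the urokinase receptor, 6.09-fold. Plasminogen itself, Plg, measured 630 ± 23.9 FPKM in the controls and 628 ± 54.9 FPKM after APAP (SD, n = 3 each).

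Inflammatory signalling was uneven, beside backgrounds of 11.3% higher and 9.4% lower. Of 24 genes of cytokine signalling through STAT3, 8 rose (4 without control replicate 2 or APAP replicate 1, 5 without APAP replicate 3) and 1 fell, such as Pim3, a kinase induced by STAT3 (3.74-fold), and Osmr, the oncostatin M receptor (2.83-fold). Of 30 NF-kB subunits and inhibitors 11 rose and 0 fell, with the deubiquitinase Otud1 at 3.70-fold and the subunit Rel at 1.80-fold. Of 16 tested chemokine genes 6 rose, and 2 of the 16 passed the filter on low values only through treated libraries. Some of the chemokine genes that rose, including the most changed, are also counted among the platelet markers below. Cxcl12, a chemokine of stromal and endothelial cells, fell from 81.5, 96.8 and 62.9 to 31.5, 42.0 and 43.6 FPKM. The interferon response ran the other way. Of 44 tested genes 0 rose and 12 fell, 10 of them also without control replicate 3, with a median log2 fold change of -0.38. Without APAP replicate 3 the falls numbered 7. Among the falls were the interferon-inducible GTPase genes Irgm2, Ifi47 and Igtp: Irgm2 went from 14.5, 16.9 and 14.1 to 4.83, 4.32 and 5.87 FPKM (adjusted p = 0.000194), Ifi47 from 8.39, 7.25 and 8.03 to 2.35, 1.94 and 3.70 FPKM, and Igtp from 13.9, 15.01 and 10.5 to 5.23, 4.02 and 4.66 FPKM. Ddx58, the RNA sensor RIG-I, fell to a fold of 0.546.

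Of 54 cytoskeletal genes 16 rose and 1 fell, beside backgrounds of 11.3% higher and 9.4% lower. Of these calls 14 and 1 were kept without control replicate 3, and 9 genes rose without APAP replicate 1. Actg1, cytoplasmic gamma actin, rose from 60.4, 60.3 and 40.5 FPKM to 331, 184 and 265 FPKM, 5.21-fold (adjusted p = 0.00203), while Actb, at 288 ± 65.7 FPKM in the controls and 383 ± 49.6 FPKM after APAP (SD, n = 3 each), did not pass limma (adjusted p = 0.0599) unless control replicate 3 was left out (adjusted p = 0.0226). Tubb2a and Tubb6, beta tubulins, rose 6.00-fold and 5.12-fold, and Krt8, a keratin of hepatocytes and bile ducts, rose from 60.7, 64.4 and 55.7 to 215, 166 and 253 FPKM. Actin and tubulin genes have close copies, so some reads may have been assigned to the wrong member. Of 33 cell cycle genes 5 rose (3 without control replicate 2, APAP replicate 1 or APAP replicate 3) and 3 fell, beside backgrounds of 11.3% and 9.4%, with Ccnd1, cyclin D1, going from 3.51, 4.13 and 7.93 to 2.19, 1.68 and 1.94 FPKM and the replication factor Mcm10 from 18.3, 18.03 and 24.5 to 7.52, 9.70 and 5.86 FPKM.

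The count of matrix and stellate cell genes depended on control replicate 3. With all libraries 8 of 38 were called higher and 2 lower, beside backgrounds of 11.3% higher and 9.4% lower, and the median log2 difference was 0.52. Without control replicate 3 the counts were 23 and 2, against a background of 10.3% higher, and the median was 0.76, against -0.05 over all genes tested in that fit. Adamts1, a secreted protease, rose in both fits, from 3.14, 3.74 and 2.82 FPKM to 20.6, 13.2 and 18.4 FPKM, as did the basement membrane collagen gene Col4a1 (1.88-fold) and Pdgfra, a receptor of stellate cells and fibroblasts (1.98-fold). The fibrillar collagen gene Col3a1, named here after its values were seen, measured 1.80 and 1.66 FPKM in control replicates 1 and 2, 12.7 FPKM in control replicate 3 and 4.44, 2.40 and 8.87 FPKM after APAP, so that the groups overlapped only through that control. For Bgn and Sparc, proteins of the extracellular matrix, control replicate 3 measured 36.4 and 24.7 FPKM, the other controls 19.8 and 21.5 and 13.4 and 14.5 FPKM, and the APAP livers 31.1 to 35.4 and 20.1 to 26.01 FPKM.

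**Figure D4:**
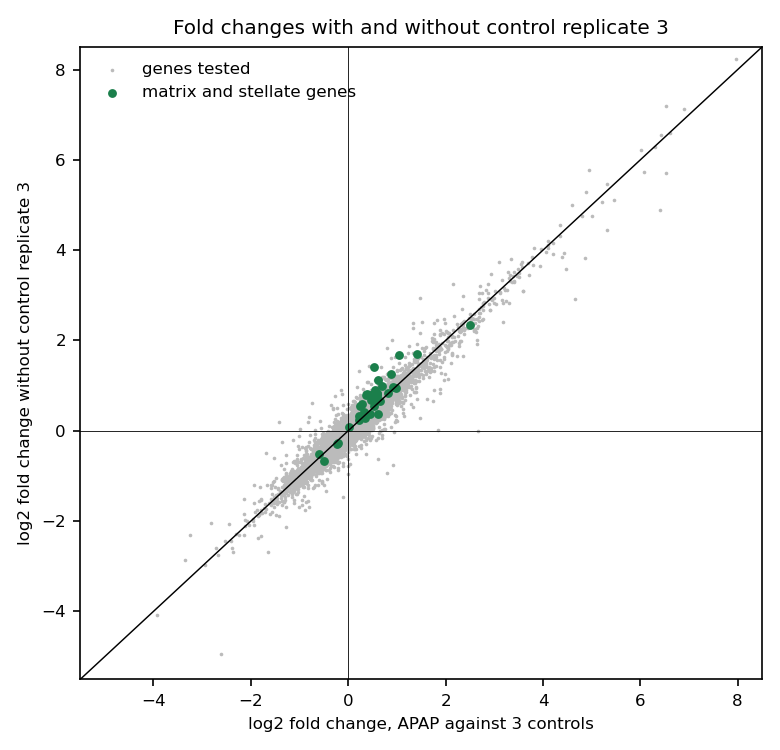
Log2 fold change of APAP against control for each gene tested, with all 3 controls (horizontal) and without control replicate 3 (vertical); green points are the 38 matrix and stellate genes and the line marks equal values. Most genes lie along the line, while the matrix and stellate genes lie mostly above it, their median going from 0.52 to 0.76.

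Markers of other cell types moved beside these changes, and their part in the results above was not tested. Sums are of rescaled FPKM over all listed markers present in the expression table, tested or not. Platelet markers rose in 7 of 8 tested, and 4 of the 8 passed the filter on low values only through treated libraries, with a summed level of 5.34 to 9.88 FPKM in the controls and 27.0 to 28.8 FPKM after APAP. Tubb1, the tubulin of platelets and megakaryocytes, measured 0.0655, 0.0704 and 0.0868 FPKM against 2.17, 1.70 and 2.33 FPKM. Neutrophil markers rose in 6 of 9 tested (4 without control replicate 3), and 3 of the 9 passed the filter only through treated libraries. Their sums were 3.82 to 24.1 FPKM against 23.7 to 66.5 FPKM, so that the highest control overlapped the lowest APAP library. Of the 18 listed, 3 were at 0 in all controls and 3 in all APAP libraries. Il1r2, the decoy receptor of interleukin 1, was at 4.19, 0.449 and 2.30 FPKM after APAP against 0.16 FPKM or less in the controls, and its log2 fold change of 3.40 became 2.77 without APAP replicate 1 and 4.24 without APAP replicate 2. Of 15 Kupffer cell markers 1 rose and 1 fell, the sums being 230 to 261 FPKM in the controls and 136 to 232 FPKM after APAP. Of 16 endothelial markers 3 were higher and 2 lower, beside backgrounds of 11.3% and 9.4%: Lyve1, a hyaluronan receptor of sinusoidal endothelium, rose from 6.26, 3.47 and 3.11 to 15.6, 13.8 and 11.3 FPKM, while Gpr182 fell to a fold of 0.535. Of 7 tested erythroid markers 2 were called higher (1 without control replicate 1, control replicate 3 or APAP replicate 1). The 9 present in the expression table summed to 331 to 481 FPKM in the controls and 519 to 1146 FPKM after APAP.

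**Figure D5:**
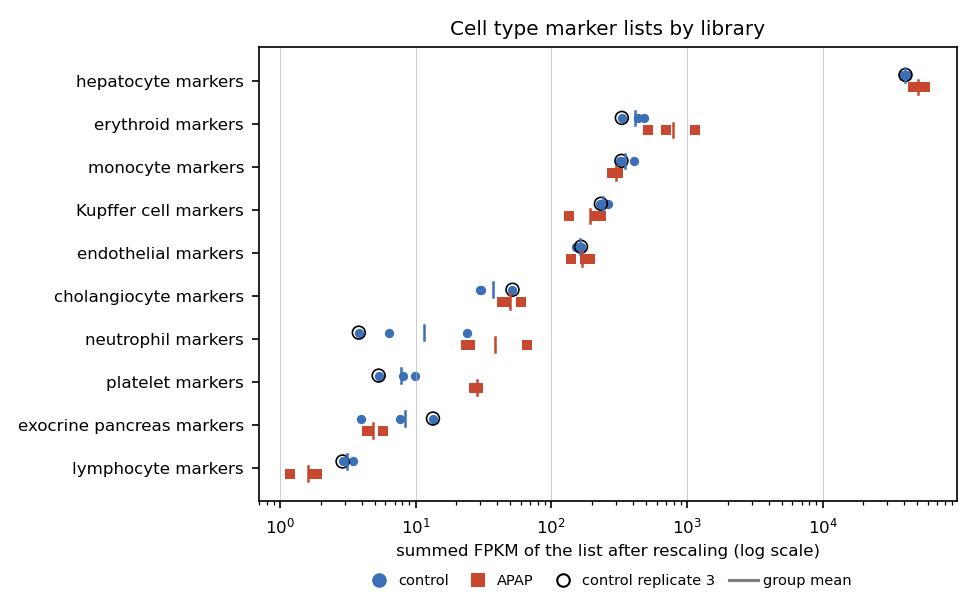
Summed FPKM after rescaling (log scale) of 10 cell type marker lists in each control (circles) and APAP library (squares), with ticks at group means and black rings on control replicate 3. Hepatocyte markers dominate every library, platelet markers are separate between the groups at 5.34 to 9.88 against 27.0 to 28.8 FPKM, and the Kupffer and endothelial sums overlap.

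Some genes passed only when control replicate 3 was left out. Rgs16, a regulator of G protein signalling, measured 2.68, 0.711 and 35.6 FPKM in the controls and 8.10, 17.9 and 8.85 FPKM after APAP. Aqp8, an aquaporin, measured 2.99, 3.99 and 27.4 FPKM against 15.2, 18.3 and 15.4 FPKM, and Bcl6, a transcriptional repressor, 1.38, 2.08 and 17.1 FPKM against 4.72, 7.41 and 6.18 FPKM. In all 3 the other controls lay below every APAP library and control replicate 3 lay above them. Oat, ornithine aminotransferase, was high in the other controls, at 423 and 576 FPKM in control replicates 1 and 2, 162 FPKM in control replicate 3 and 178, 204 and 116 FPKM after APAP. The log2 fold changes without control replicate 3 were 2.94 for Rgs16, 2.27 for Aqp8, 1.83 for Bcl6 and -1.54 for Oat, and with it 1.47, 1.34, 0.80 and -0.95, none of them called.

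The dmPGE2-pretreated livers share the controls of this comparison, so only levels are given for them. Chka measured 192, 101 and 73.0 FPKM there, Cidec 16.2, 26.6 and 20.0 FPKM and Krt8 185, 69.3 and 63.2 FPKM, each above every control in the first library and, for Cidec and Chka, in all 3. Mt2 measured 1332, 1245 and 1123 FPKM and Dusp8 6.63, 7.06 and 6.54 FPKM, close to the levels after APAP alone. Upp2, a uridine phosphorylase that fell from 76.1, 88.9 and 99.9 FPKM in the controls to 26.4, 36.0 and 37.9 FPKM after APAP, measured 65.7, 128 and 134 FPKM.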

How the data were processed

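The authors deposited gene-level FPKM for 9 liver libraries, and these FPKM values were used as deposited. HISAT2 and the mouse build GRCm38 are named, per the submitters' processing notes; the quantifier, and whether counting used strand, are not given in the sources used here. FPKM carries no counts, so the depth behind each value is unknown and no counting interval is given. Genes with at least 0.5 FPKM in at least 3 of 9 libraries were kept, each library was rescaled by a trimmed mean of its log ratios, after dropping the 30% most extreme ratios and the 5% most extreme levels at each end, and log2(FPKM + 0.1) was fitted with limma 3.58.1 (R 4.3.3) with a trended prior on all 9 libraries, 6 residual degrees of freedom, and Benjamini-Hochberg adjustment over all genes at 0.05. Folds are on the log2(FPKM + 0.1) scale after rescaling and understate the change of low genes. FPKM of a gene in single libraries are as deposited, whereas sums over marker lists are of rescaled FPKM. An exact test of 3 against 3 libraries cannot go below p = 0.1. Promoter windows came from RefSeq (GRCm38.p6). Without strand information, antisense overlaps cannot be separated; by GENCODE M21 annotation, 73.47% of the exonic bases of Mt2 overlap the antisense gene Gm45774. The fit was also run on simulated data, and the outcome is not given here.

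Alternatives were the pseudocount, the filter, the scaling, the libraries fitted, the prior, a replicate block and leaving out each library. Genes were named by rule: the 15 largest rises and falls by ratio and by level among calls kept without any 1 library, the 8 most changed and 4 most abundant uncalled members of each list, and 10 genes each whose change or call depended most on control replicate 3. Bag4, Ccng1, Col3a1, Dusp7, Ireb2, Map3k5, Mapk9 and Rxra lie outside it and were chosen after their values were seen. The members and lists were chosen with earlier results of these data known. The long non-coding RNA tables and the tables named as read counts, whose values differ between replicates out of proportion to the FPKM, were not used.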

Additional observations from a re-analysis of the deposited data

How the results depend on the processing

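None of the 166 genes named here that was called reversed its direction under any alternative run. For the 6 fits without 1 library this was fixed in advance, because the genes described were chosen from calls kept in all of them. Lower calls moved most with rescaling: on the FPKM as deposited, 2107 genes and 311 members of the gene lists were called lower, against 1086 and 161 after rescaling, and 974 genes were called higher. Leaving out 1 library at a time, the calls ranged from 1559 to 2360 in all, from 861 to 1190 higher and from 698 to 1170 lower, and list members called lower from 92 to 176; the lowest counts came without APAP replicate 1 or 3. With the 6 libraries fitted alone, 979 genes were called higher and 810 lower. Replicate numbers are shared between the groups, but the deviations of equally numbered libraries were correlated at 0.017, 0.063 and 0.072, which does not pair them; each control correlated best with its own number. With a replicate block 1155 genes were called higher and 870 lower. A pseudocount of 1 in place of 0.1 moved the fold of 28 named genes by over 1.5 times and ended no call, and Areg fell under a filter of 1 FPKM. The depth behind each FPKM is unknown, 3 libraries a group limit the precision, and genes under the filter were not compared.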
